A study of Homo sapiens with 4 samples.

Results

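The axon guidance ligands and receptors were described across the H3K27ac regions assigned to them in cultured A375 cells, an established line from a human melanoma. Members were defined by gene symbol, with earlier results of these data known. They were semaphorins (SEMA), plexins (PLXN), ephrins (EFNA, EFNB), Eph receptors (EPHA, EPHB), Slits, Robos, netrins (NTN) and UNC5 receptors. The rule found 757 of the 91107 distinct regions in the authors' deposited table, assigned to 63 of its 17301 genes. The study used chromatin immunoprecipitation and sequencing with an antibody to H3K27ac, histone H3 acetylated at a lysine which marks promoters and enhancers in use. Its 2 vehicle libraries came from A375 cells given isopropanol, and its 2 octanoate libraries from A375 cells given 1 mM octanoate, a medium-chain fatty acid, both for 48 hours. All 4 libraries thus share 1 cell line, and the labels do not say whether the 2 libraries of a treatment came from separate cultures, so that the p-values measure only the spread between these libraries, which may be technical.

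The values are those of the authors' own DESeq2 comparison, with no value per library, so depth is unknown and no spread between replicates can be shown. Each region has a mean level in the authors' normalized units, a log2 fold change with its standard error (SE), a p-value and, above a mean level of 18.44, an adjusted p-value. The table does not name the numerator, so fold changes are called positive or negative and never a gain or loss under octanoate. Coordinates are those of the table, and the submitters' processing notes name hg38 as the build. Each region is listed with a gene and its distance to that gene's start, by a rule not stated, and not always with the nearest start. The listing does not show that the region controls the gene. A region with an adjusted p-value is called tested below, and one with an adjusted p-value under 0.05 is called past the threshold. As a check of the cell type, 5 of 9 melanocyte lineage genes had a region over the start in the authors' deposited table, SOX10 with a mean level of 774, MITF with 98.4, PMEL with 269, PAX3 with 93.3 and S100B with 55.2. MLANA, TYR, DCT and TYRP1, the later pigmentation genes, had none. Of the markers of other cell types, 0 of 3 keratinocyte, 0 of 3 leukocyte and 0 of 3 endothelial genes had a region over the start in the authors' deposited table, and 2 of 4 neuronal genes did, TUBB3 (286) and SNAP25 (63.2). Away from starts or over them, 1 region each of CDH5, RBFOX3 and SNAP25 was past the threshold in that table, and the part of other cell types in the members' values was not tested.

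Guidance cues steer growing axons and migrating cells, including neural crest cells, from which melanocytes descend. Semaphorins signal through plexins, the secreted class usually with a neuropilin co-receptor, and Slits signal through Robos, both mostly as repellents. Ephrins are bound to the membrane and signal to Eph receptor tyrosine kinases on the neighbouring cell, with signalling also back into the ephrin-bearing cell. Netrins attract through DCC and repel through UNC5 receptors, which are also known as dependence receptors because they can promote cell death when no ligand is bound.

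The bases before the start are shown for 5 of the members named below. SEMA4F had the only start region past the threshold, of 40 tested, and SEMA3D the start region just outside it. That share of 2.5% stood beside 0.860% of all tested start regions. NTN4 and EFNB2 had regions past the threshold away from their starts, as did SEMA3F, SEMA4B and SEMA3A, which are not shown. SEMA7A had the highest level of all members. Each line gives the 250 bases before the outermost start in the RefSeq promoter table (GRCh38.p14), 5′ to 3′ on the strand of the gene, with GC boxes (GGGCGG on either strand) and CCAAT boxes (CCAAT on either strand) in capitals. They lie at chr2:74653997-74654246 (plus strand) for SEMA4F, chr7:85187057-85187306 (minus strand) for SEMA3D, chr12:95791156-95791405 (minus strand) for NTN4, chr13:106535663-106535912 (minus strand) for EFNB2 and chr15:74433959-74434208 (minus strand) for SEMA7A. All 5 windows lay wholly inside a region of the authors' deposited table.
SEMA4F: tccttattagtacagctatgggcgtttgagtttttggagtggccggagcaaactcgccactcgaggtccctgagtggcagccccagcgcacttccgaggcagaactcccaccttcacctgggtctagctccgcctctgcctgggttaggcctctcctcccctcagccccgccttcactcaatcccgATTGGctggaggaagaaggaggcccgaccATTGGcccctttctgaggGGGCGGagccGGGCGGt
SEMA3D: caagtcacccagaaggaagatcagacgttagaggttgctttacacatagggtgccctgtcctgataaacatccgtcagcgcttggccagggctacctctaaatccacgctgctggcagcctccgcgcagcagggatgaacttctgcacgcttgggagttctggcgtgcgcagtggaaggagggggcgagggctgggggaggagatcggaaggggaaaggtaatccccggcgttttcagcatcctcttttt
NTN4: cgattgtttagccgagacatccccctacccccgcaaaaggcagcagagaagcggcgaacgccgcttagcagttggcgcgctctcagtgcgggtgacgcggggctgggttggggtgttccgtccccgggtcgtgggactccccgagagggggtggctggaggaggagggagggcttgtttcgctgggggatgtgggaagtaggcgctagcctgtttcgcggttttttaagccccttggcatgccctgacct
EFNB2: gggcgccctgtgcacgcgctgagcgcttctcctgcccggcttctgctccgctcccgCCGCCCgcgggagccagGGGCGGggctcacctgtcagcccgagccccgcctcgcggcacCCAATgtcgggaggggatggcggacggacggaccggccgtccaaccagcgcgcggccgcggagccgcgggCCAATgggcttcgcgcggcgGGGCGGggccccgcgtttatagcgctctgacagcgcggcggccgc
SEMA7A: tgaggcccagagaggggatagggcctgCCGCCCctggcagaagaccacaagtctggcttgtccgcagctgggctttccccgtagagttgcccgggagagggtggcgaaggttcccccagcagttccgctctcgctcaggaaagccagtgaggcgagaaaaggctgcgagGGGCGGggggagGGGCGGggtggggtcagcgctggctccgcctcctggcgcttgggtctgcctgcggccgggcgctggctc

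These 5 windows differed in base content and in their boxes. SEMA4F held 2 GC boxes and 2 CCAAT boxes, EFNB2 held 3 and 2, and SEMA7A held 3 and 0. SEMA3D and NTN4 held 0 of either, although their G and C content was 57.6% and 64.4%. The window of another RefSeq start of NTN4, inside the same region and not shown, held 4 GC boxes and 78.4% G and C. Of the 5 windows, EFNB2 was the richest in CpG, with 40 CpG dinucleotides and 78.4% G and C. It alone held the letters TATAAA on either strand, and they lay on the strand opposite to that of the gene. The start regions of the 5 genes had log2 fold changes from 0.40 to 1.23 per the authors' deposited table, the lowest at SEMA7A and the highest at SEMA4F. A match is a description of these letters and not evidence of a bound factor.

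Of the 63 genes, 55 matched the promoter table, and the outermost starts gave 54 distinct windows, since windows shared with another gene were counted once. A GC box was present in 74.1% of them and in 42.5% of 34943 distinct RefSeq promoter windows of the same length. Their median G and C content was 65.4%, against 58.0%. CCAAT boxes were in 18 of the 54 and in 11194 of the 34943. TATAAA on either strand was in 1 of the 54, that of EFNB2, against 10.8% of all windows. An E-box (CACGTG, the letters that MITF and MYC bind) was in 3 of the 54 against 6.32% of all windows, and an AP-1 site (TGANTCA, either strand) in 0 against 6.59% of all windows. The cAMP response element (TGACGTCA) was in 3 of the 54, against 1.63%. The 34 windows whose start lay inside a region of the gene held, by the authors' deposited table's coordinates, a median of 19.5 CpG dinucleotides, and the other 20 a median of 13. The 34943 windows include inner starts of genes, whereas the members were counted at outermost starts only, so the shares are not of like sets. Inner starts of members held an AP-1 site at PLXNC1 and TATAAA at EPHA7 and SEMA3E, which are not counted here. The RefSeq shares describe windows of all annotated genes, silent ones included, and none of these differences was tested.

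Across the 757 regions, the authors' deposited table gave a median of 0.24 on the log2 scale, with quartiles of -0.06 and 0.53, and 69.9% of the regions were positive. The whole of the authors' deposited table had 0.28 as its median, with 73.7% of regions positive. The order of these medians was not stable, since at a mean level of at least 100 the members had 0.37 and all regions 0.31 per the authors' deposited table. Of the members, 263 were tested, 34.7% against 40.0% of all regions, and their median was 0.29 against 0.32 per the authors' deposited table. A log2 value of 0.32 is a ratio of 1.25, and the members, like the table as a whole, were shifted to positive values. Normalization and acetylation as the source of that common shift cannot be told apart here.

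Of the 263 tested member regions, 6 were past the threshold in the authors' deposited table, all positive, or 2.28%. Over all 36436 tested regions 1.67% were past it, 1.65% positive and 0.0192% negative, so the members' share was near the background. At an unadjusted p-value under 0.05 there were 50 positive member regions, 19.0% against 17.9% of all tested regions, and 3 negative ones, 1.14% against 0.475% per the authors' deposited table. The 6 regions belonged to 6 genes of the 59 with a tested region, 10.2%, where 3.53% of all genes with a tested region had at least 1 past the threshold. Member genes had a median of 3 tested regions and all genes a median of 2, so that a member gene had more chances of a call. The medians understate this, since the 263 tested regions fell on 59 genes and the 36436 of all on 15191 genes. EFNB2 and SEMA3A, each with 1 region past the threshold, had 17 tested regions each, as did SEMA3C, which had 0 past it. All 6 lay beside ligands, which had 143 tested regions, and the 120 tested regions of receptors held 0 past the threshold and 19 positive at an unadjusted p-value under 0.05 per the authors' deposited table. The difference between ligands and receptors was not tested. Families had from 10 to 83 tested regions, too few at a share of 1.67% to read a count of 0 as a difference.

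**Figure D1:**
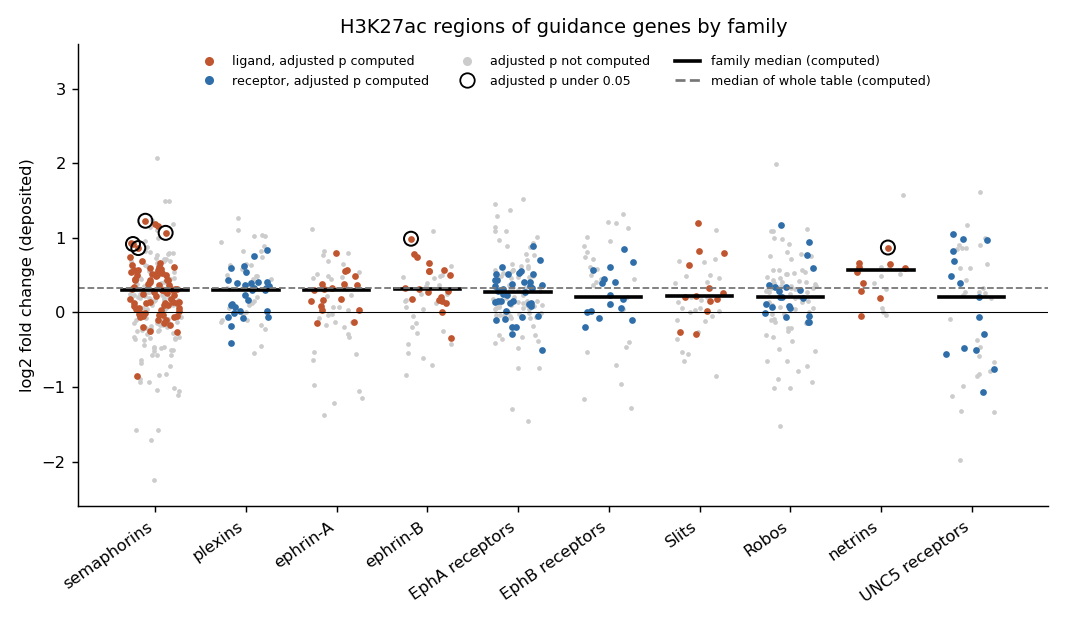
Deposited log2 fold change (vertical axis) of each member region, by family, with ligands and receptors in different colours, regions without an adjusted p-value in grey, and black bars at the median of the tested regions. The 6 ringed regions past the threshold lie among the semaphorins, ephrin-B ligands and netrins. Family medians run from 0.21 at the UNC5 receptors to 0.57 at the netrins, on both sides of the dashed table median of 0.32. The lowest points, a SEMA3D region at -2.24 and a UNC5C region at -1.97, have no adjusted p-value.

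Semaphorins, with 20 genes and 220 regions, held 4 of the 6 regions past the threshold. That was 4.82% of their tested regions, against 1.67% of all tested regions, a difference that was not tested. The authors' deposited table gave their 83 tested regions a median log2 fold change of 0.31. SEMA4F, a transmembrane semaphorin, had the largest of the 6 changes. Its region over the start (chromosome 2, 74653683 to 74655098) had a mean level of 32.5 and a log2 fold change of 1.23 with an SE of 0.36 (ratio 2.35, adjusted p-value 0.0442) per the authors' deposited table. A region 60508 bases beyond its start, past the end of the gene, had a similar value of 1.19 ± 0.38 (SE) per the authors' deposited table but missed the threshold, with an adjusted p-value of 0.0761.

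SEMA4B, another transmembrane semaphorin, had 13 regions. The one past the threshold (chromosome 15, 90209976 to 90213600) lay within the gene, 25014 bases from its start, with a log2 fold change of 0.92 ± 0.25 (SE) and an adjusted p-value of 0.0249 per the authors' deposited table. The start region of SEMA4B had 0.37 ± 0.26 (SE) per the authors' deposited table, close to the table median. Tested regions between the 2 had -0.05 ± 0.42 (SE) at -6591 bases and 0.75 ± 0.27 (SE, adjusted p-value 0.113) at -15696 bases per the authors' deposited table. Each of these held another RefSeq start of SEMA4B, and the differences between these regions were not tested.

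Among the secreted class 3 semaphorins, SEMA3F and SEMA3A had 1 region past the threshold each. SEMA3F signals through neuropilin-2 and is known as a repellent of tumour and endothelial cells. Its region (chromosome 3, 50135777 to 50140566) lay upstream, 14525 bases from the start, with a mean level of 120 and a log2 fold change of 0.86 ± 0.23 (SE, adjusted p-value 0.0225) per the authors' deposited table. A region of SEMA3F within the gene had 0.69 ± 0.23 (SE) and missed the threshold, at an adjusted p-value of 0.0883 by the authors' deposited table. Positive values were thus found on both sides of the SEMA3F start, and 10 of the gene's 11 regions were positive per the authors' deposited table.

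SEMA3A, which collapses growth cones through neuropilin-1 and A-type plexins, had 46 regions, of which 28 were positive and 18 negative in the authors' deposited table. The region past the threshold (chromosome 7, 84235591 to 84239133) lay 40146 bases from the start used by the table but within the RefSeq span of SEMA3A, with a mean level of 44.3 and a log2 fold change of 1.07 ± 0.30 (SE, adjusted p-value 0.0301) per the authors' deposited table. The 10072-base region over the SEMA3A start had a mean level of 291 and a log2 fold change of 0.37 ± 0.19 (SE) per the authors' deposited table.

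SEMA3D, also secreted, stood just outside the threshold. Its start region (chromosome 7, 85185011 to 85187563) had 0.93 ± 0.28 (SE) with an adjusted p-value of 0.0504 per the authors' deposited table, and a region within the gene had 1.16 ± 0.37 (SE) with 0.0677. SEMA3D regions spread widely, from -2.24 to 2.07, both extremes at low mean levels (4.01 and 5.37) per the authors' deposited table.

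SEMA3C and SEMA3E, secreted semaphorins that engage plexins, lay lower. Of the 40 SEMA3C regions 21 were positive in the authors' deposited table, with a median log2 fold change of 0.04. The SEMA3C region with the most negative tested value (chromosome 7, 80740755 to 80742666, within the gene) had -0.85 ± 0.38 (SE) and did not pass, at an adjusted p-value of 0.219 per the authors' deposited table. One of the widest member regions, 11560 bases within SEMA3C, had 0.04 ± 0.21 (SE) per the authors' deposited table, and 10 of the 16 SEMA3E regions were negative. SEMA7A, a semaphorin anchored in the membrane by a lipid and a ligand of PLXNC1 and of integrins, had the highest and widest member region. It covered 23298 bases over the start (chromosome 15, 74412125 to 74435423), with a mean level of 753 and a log2 fold change of 0.40 ± 0.22 (SE, adjusted p-value 0.296) per the authors' deposited table.

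**Figure D2:**
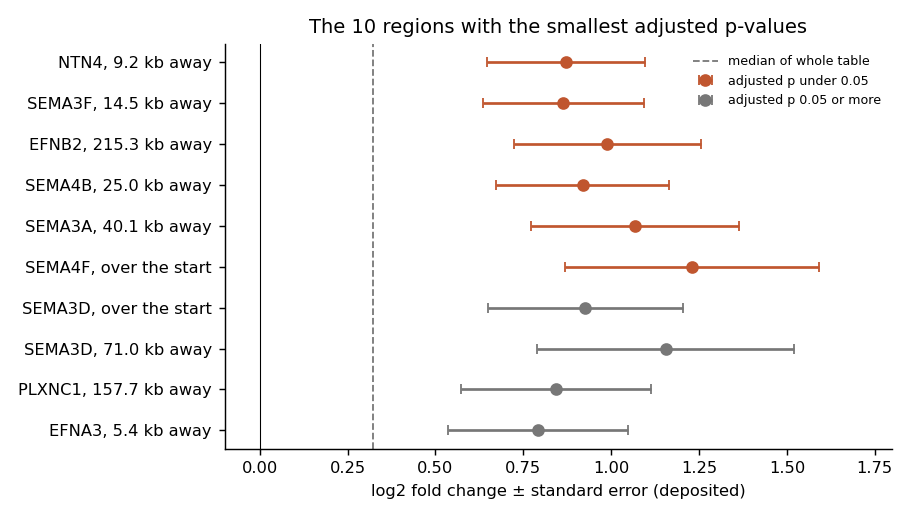
Deposited log2 fold change with its standard error (horizontal axis) for the 10 member regions with the smallest adjusted p-values, labelled by gene and distance to its start. The 6 regions past the threshold run from 0.86 at SEMA3F to 1.23 at SEMA4F, and the 4 below them in the plot have values of similar size.

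Plexins, the semaphorin receptors, had 70 regions of 9 genes, 29 of them tested. Of these, 0 were past the threshold in the authors' deposited table, where 1.67% of all tested regions passed. At an unadjusted p-value under 0.05, 3 plexin regions were positive, 10.3% against 17.9% of all tested regions, and 0 negative per the authors' deposited table. Their smallest p-value belonged to a region of PLXNC1, the SEMA7A receptor, which lay upstream (chromosome 12, 94101597 to 94104788), 157733 bases from the start the table uses, with 0.84 ± 0.27 (SE) and an adjusted p-value of 0.0710 per the authors' deposited table. The outermost RefSeq start of PLXNC1, at 94148577, lies nearer to that region. Of the B-type plexins, which bind class 4 semaphorins, PLXNB2 had the highest region over a start as the table places it, with a mean level of 179 and a log2 fold change of 0.39 ± 0.24 (SE) per the authors' deposited table. That PLXNB2 region also overlaps DENND6B and does not hold the RefSeq start of PLXNB2, which lies 5959 bases from the one the table uses. The start region of PLXNB1 had -0.01 ± 0.24 (SE) at a mean level of 144 per the authors' deposited table, one of 2 negative start regions among the members. PLXND1, the receptor of SEMA3E, had a median of 0.02 over 11 regions but of 0.34 over its 6 tested ones, all positive, and SEMA3E itself had -0.20 over 16 but 0.18 over its 3 tested ones per the authors' deposited table.

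Of the neuropilins, the co-receptors of class 3 semaphorins, both genes had a region over the start with a positive value short of the threshold in the authors' deposited table. NRP1 had 0.46 ± 0.22 (SE, adjusted p-value 0.245) and NRP2 had 0.48 ± 0.23 (SE, adjusted p-value 0.239), at mean levels of 185 and 175 per the authors' deposited table.

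Ephrins had 101 regions of 7 genes. Of 37 tested regions 1 was past the threshold in the authors' deposited table, 2.70% against 1.67% of all tested regions. That region was assigned to EFNB2, a transmembrane ephrin that binds EPHB4 and is known from arterial vessels. It lay 215251 bases from the start, beyond the end of the gene and outside every RefSeq protein-coding gene (chromosome 13, 106317067 to 106320412), with a mean level of 57.8 and a log2 fold change of 0.99 ± 0.27 (SE, adjusted p-value 0.0245) per the authors' deposited table. A region 158001 bases from the start had 0.74 ± 0.24 (SE, adjusted p-value 0.0766), and the region over the EFNB2 start had 0.56 ± 0.23 (SE, adjusted p-value 0.184) per the authors' deposited table. EFNB2 regions were not uniform. Between the regions 215251 and 158001 bases away lay 4 others with values from -0.42 to 0.25, of which the only tested one, at a mean level of 108, had 0.17 ± 0.23 (SE) per the authors' deposited table. A region 412584 bases away, of 7232 bases and with a mean level of 129, had -0.34 ± 0.23 (SE) per the authors' deposited table. Of all 41 regions of EFNB2, 30 were positive per the authors' deposited table.

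The ephrin-A ligands, which are anchored by a lipid, had 0 of 18 tested regions past the threshold, where 1.67% of all tested regions passed. EFNA3 came nearest, with a region of mean level 84.8 within the gene at 0.79 ± 0.26 (SE, adjusted p-value 0.0759) per the authors' deposited table. EFNA1, the main ligand of EPHA2, had a start region at a mean level of 249 with 0.30 ± 0.21 (SE) per the authors' deposited table. The 46 regions of EFNA5 had a median of 0.08, and 28 of them were positive in the authors' deposited table.

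Eph receptors had 164 regions of 11 genes, 55 of them tested. Of these, 0 were past the threshold in the authors' deposited table, where 1.67% of all tested regions passed. At an unadjusted p-value under 0.05, 8 were positive, 14.5% against 17.9% of all tested regions, and 0 negative. EPHA2, a receptor often abundant in melanoma, had the highest EphA start region. That region had a mean level of 369 and a log2 fold change of 0.51 ± 0.22 (SE, adjusted p-value 0.204), and a 19760-base region upstream of EPHA2 had a mean level of 551 and 0.41 ± 0.21 (SE) per the authors' deposited table. All 6 tested EPHA2 regions were positive, from 0.27 to 0.53 per the authors' deposited table. EPHA4 had the smallest EphA p-value, at a region within the gene with 0.89 ± 0.34 (SE, adjusted p-value 0.153) per the authors' deposited table. EPHB2 had 0.85 ± 0.31 (SE, adjusted p-value 0.124) over its start, and EPHB4, the EFNB2 receptor, 0.61 ± 0.27 (SE, adjusted p-value 0.204) over its own per the authors' deposited table. EPHB3 lay lower, with 9 of 14 regions negative in the authors' deposited table, and its nearest region began 8 bases past the start.

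**Figure D3:**
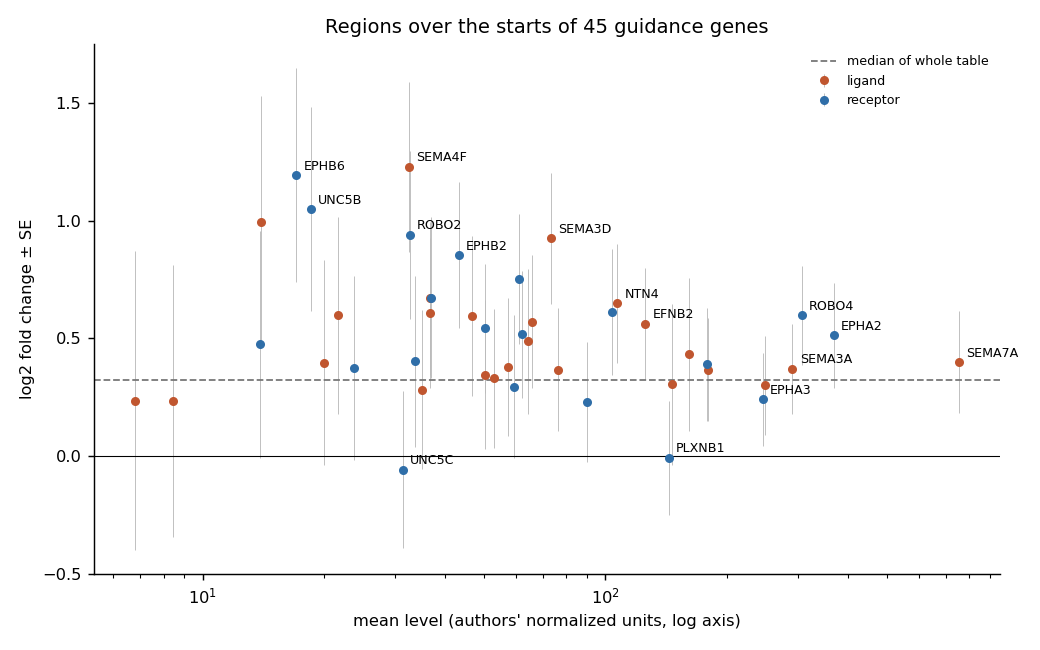
Deposited log2 fold change with its standard error (vertical axis) against mean level (horizontal log axis) for the regions over the starts of 45 member genes. All points but UNC5C and PLXNB1 lie above 0, and SEMA7A has the highest level, 753. SEMA4F is the only one of the 40 tested that is past the threshold, 2.5% against 0.860% of all tested start regions.

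Slits and Robos, secreted ligands and their receptors, had 40 and 96 regions. Past the threshold were 0 of 13 and 0 of 21 tested regions in the authors' deposited table, where 1.67% of all tested regions passed. SLIT1 had 2 regions within the gene at 1.19 ± 0.41 (SE, adjusted p-value 0.0968) and 0.80 ± 0.32 (SE, adjusted p-value 0.168), and all 4 of its regions were positive per the authors' deposited table. SLIT2 was nearer to the table median, with 0.33 ± 0.29 (SE) at its start in the authors' deposited table. ROBO4, a Robo known from endothelium, had a single region, which covered 9124 bases over its start at a mean level of 308 (log2 fold change 0.60 ± 0.21 SE, adjusted p-value 0.111) per the authors' deposited table. Its neighbour on chromosome 11, ROBO3, had 4 regions, all positive, from 0.60 to 1.17 per the authors' deposited table. ROBO1 had the most regions of all members, 54, of which 33 were positive, with a median of 0.12 per the authors' deposited table.

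Netrins had 20 regions of 4 genes and the highest median of the 10 families, 0.51, with 18 regions positive in the authors' deposited table. NTN4, a netrin that binds laminin in basement membranes, had the smallest p-value of all members. Its region (chromosome 12, 95800402 to 95808349) lay upstream, 9250 bases from the start, with a mean level of 103 and a log2 fold change of 0.87 ± 0.22 (SE, ratio 1.83, unadjusted p-value 0.000106, adjusted 0.0177) per the authors' deposited table. The NTN4 start region had 0.65 ± 0.25 (SE, adjusted p-value 0.158) per the authors' deposited table. NTN1, the best known axon attractant of the family, had 7 regions, all positive and all at mean levels of at most 28.5 per the authors' deposited table.

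The UNC5 receptors split. UNC5A, UNC5B, UNC5D and UNC5CL, which shares only the C-terminal part of the family and was kept because its symbol meets the rule, had 29 regions, 89.7% of them positive, with a median log2 fold change of 0.60 per the authors' deposited table. UNC5D had the smallest p-value of the family, at a region with 0.97 ± 0.32 (SE, adjusted p-value 0.0805), and UNC5B had 1.05 ± 0.44 (SE, adjusted p-value 0.182) over its start per the authors' deposited table. UNC5C had 17 regions and all 17 were negative, with a median of -0.50 over the 7 tested regions and of -0.79 over all 17 per the authors' deposited table.

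The UNC5C regions formed an unbroken run. They were 17 consecutive regions of the table (chromosome 4, 95166391 to 95550490), and each overlapped the RefSeq span of UNC5C (95162504 to 95548973), so that the run followed the gene from end to end. Of the 7 tested regions, those with the largest negative values lay far inside the gene. The region 255964 bases from the start (95288090 to 95293243) had a mean level of 53.1 and -0.76 ± 0.27 (SE, unadjusted p-value 0.00478, adjusted 0.113) per the authors' deposited table. The next one, 244570 bases from the start (95302956 to 95304637), had a mean level of 21.7 and -1.06 ± 0.38 (SE, adjusted p-value 0.117) per the authors' deposited table. The -1.97 extreme of UNC5C came from an untested region with a mean level of 2.56 and an SE of 0.99 per the authors' deposited table. At 229335 bases from the start the value was -0.50 ± 0.36 (SE), and at 132735 bases -0.29 ± 0.34 per the authors' deposited table. At 136685 bases the value was -0.56 ± 0.29 (SE), at 40073 bases -0.47 ± 0.26, and over the start -0.06 ± 0.33 at a mean level of 31.4 per the authors' deposited table. All 6 tested values inside the gene were more negative than the one at its start, without a steady order by distance, and that difference was not tested.

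The regions beside the run did not share its sign. All 5 regions next to it on the lower side, assigned to BMPR1B, were positive in the authors' deposited table, from 0.29 to 0.96, and 4 of the 5 on the upper side, assigned to PDHA2, were positive, with a median of 0.06. These flanks have low mean levels, at most 27.2, and 9 of the 10 had no adjusted p-value, so each alone is imprecise. Of 2675 genes with at least 10 regions, 2 had no positive region in the authors' deposited table, UNC5C and C2orf40, a comparison chosen after the UNC5C values were seen. UNC5C ranked 5 from the lowest median among those genes. The lower-side region next to the run, with 0.29, was listed at -398050 bases for BMPR1B. Its centre lay at -393 kb from the UNC5C RefSeq start. Listing by the nearer start would have given UNC5C a positive region, so the count of 0 positive regions rests on the assignment used.

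None of the UNC5C regions was past the threshold as deposited. When the median of all tested regions, 0.32, was subtracted from every fold change and the authors' SE kept, the region 255964 bases from the start became 1.08 below the median, with a Benjamini-Hochberg adjusted p-value of 0.0485 from a two-sided normal test. It was the only member region past 0.05 after this centring, which left 0.124% of all tested regions past it and 0.0714% below the median. None of the 6 regions past the threshold as deposited passed after centring, with centred adjusted p-values from 0.564 to 0.665. When the deposited p-values were adjusted over all 91107 regions, where 0.274% passed, NTN4 alone of the members stayed past 0.05, at 0.0440.

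**Figure D4:**
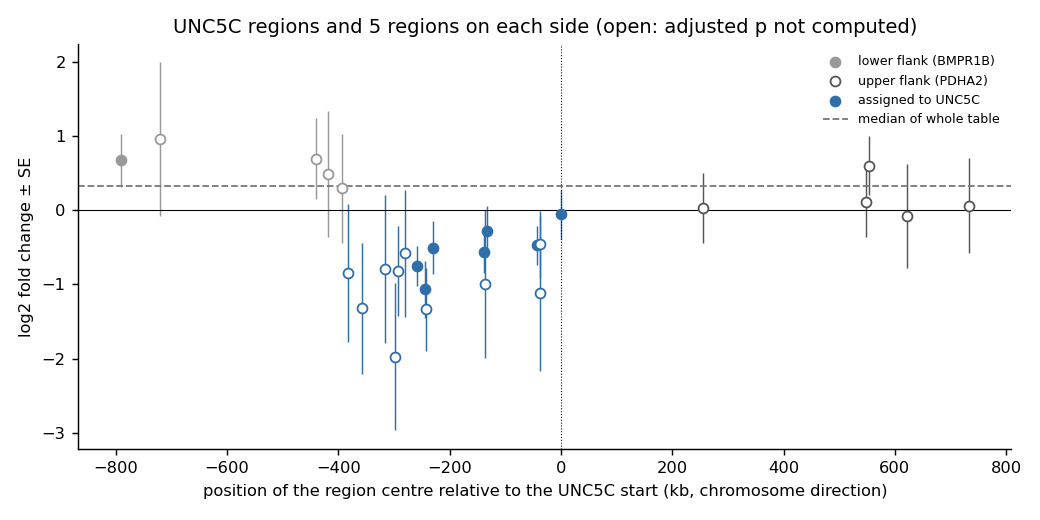
Deposited log2 fold change with its standard error (vertical axis) against the position of each region's centre relative to the UNC5C start (horizontal axis, kb), for the 17 UNC5C regions and 5 regions on each side. The UNC5C regions all lie below 0 and run from -0.06 at the start to -1.97 inside the gene, and 9 of the 10 flanking regions lie above 0.

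The remaining members were mostly genes with few regions. EPHB6, SEMA3G, SEMA5B and UNC5A had no tested region, and all 12 of their regions were positive at mean levels of at most 18.4 per the authors' deposited table. The transmembrane class 6 semaphorins, which can act as ligand and receptor, had 27 regions with a median of 0.32 there, and SEMA6A, the gene of that class with the most regions, had 0.57 ± 0.28 (SE, adjusted p-value 0.258) over its start per the authors' deposited table. All 3 SEMA5A regions were negative, but they lay 705881 to 715944 bases from its start, beyond the end of the gene, and the only tested one had -0.06 ± 0.41 (SE) per the authors' deposited table. PLXNA2 and ROBO2 had positive start regions at 0.75 ± 0.28 (SE, adjusted p-value 0.131) and 0.94 ± 0.36 (SE, adjusted p-value 0.147) per the authors' deposited table. Some regions cover more than 1 gene, and 9 of the 757 were also listed with another gene. The EPHB4 start region overlaps SLC12A9. That of EFNA3 lies within the readthrough gene EFNA4-EFNA3, which the EFNA3 region at 0.79 described above also overlaps. The values of these regions cannot be given to 1 gene. No region was listed at distance 0 for 18 genes, and the median number of regions per gene was 7.

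Genes with many regions varied in their medians. Among the 24 member genes with at least 10 regions, medians of the log2 fold changes ran by the authors' deposited table from -0.79 at UNC5C to 0.64 at EPHA4, and 3 genes, UNC5C, SEMA3E and EPHB3, had a negative median. The rest of that order was gradual, and regions of the same gene spread far more than the medians of neighbouring genes differ. All 11 EPHB1 regions were positive, the only gene of the 24 without a negative one.

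**Figure D5:**
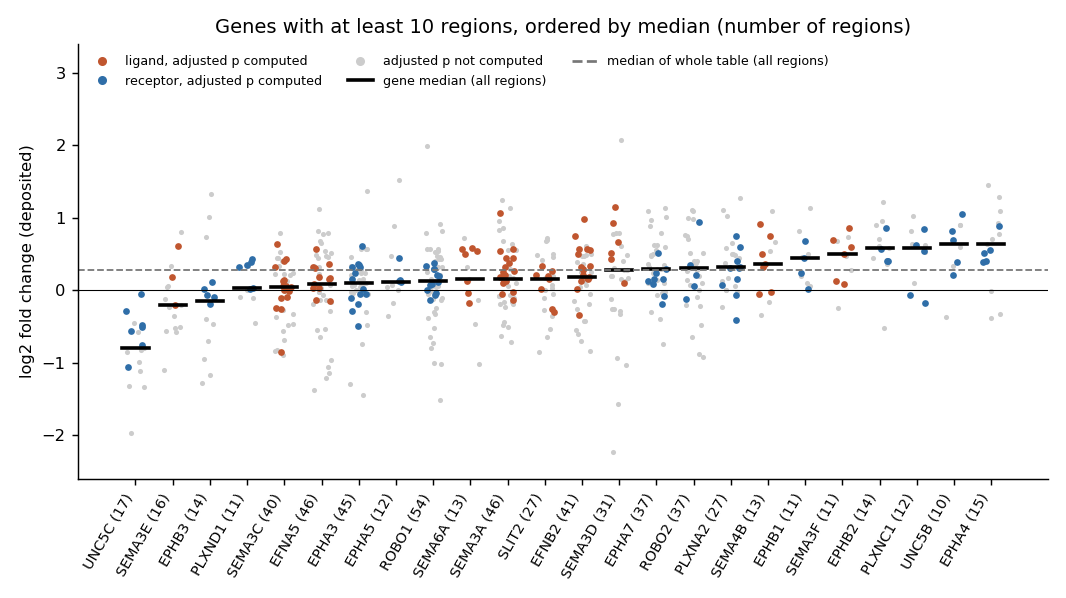
Deposited log2 fold change of every region (vertical axis) for the 24 member genes with at least 10 regions, ordered by the gene median (black bar), with the number of regions in parentheses. UNC5C has all 17 regions below 0, EPHB1 all 11 above 0, and most genes have regions on both sides.

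Regions over starts were compared with the others, because H3K27ac marks promoters and enhancers alike. The starts are those the table uses: of its 38 member start regions of genes with a RefSeq promoter 34 held a RefSeq start, and 15 regions listed away from starts held one too, among them regions of PLXNA1, PLXND1 and SEMA3C. By the table, a start region was present for 45 of the 63 genes, with a median mean level of 57.3 and a median log2 fold change of 0.48 per the authors' deposited table. The 712 regions away from starts had a median level of 9.14 and a median log2 fold change of 0.20 per the authors' deposited table. Over all regions the same medians were 0.36 at starts and 0.25 away from them per the authors' deposited table. Of the 45 member start regions 43 were positive, and 15 of the 40 tested ones were so at an unadjusted p-value under 0.05, or 37.5% against 19.2% of all tested start regions in the authors' deposited table. Past the threshold was 1 of the 40, or 2.5%, against 86 of all 9996 tested start regions, or 0.860%. These differences were not tested. Over the 712 regions away from starts, tested or not, medians were lower at greater distance by the authors' deposited table. They were 0.31 (67 regions) up to 10 kb, 0.25 (233) from 10 to 100 kb and 0.16 (412) beyond 100 kb. Medians of all regions were 0.26, 0.27 and 0.23 in these classes per the authors' deposited table. Among tested member regions the medians were 0.30, 0.32 and 0.16, so the order of the nearer classes reversed. All tested regions had 0.35, 0.32 and 0.27 per the authors' deposited table. As 45.7% of all member regions belonged to 8 genes, the member medians lean on few loci. Mean level changed along with distance, and its part in these medians was not tested.

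Other genes of the pathway were taken from 2 lists. Of 22 co-receptors and other cues, 20 had regions, and 2 of their 89 tested regions were past the threshold in the authors' deposited table, both positive. These were a region of NRCAM, an adhesion molecule of axons (0.88 ± 0.24 SE, adjusted p-value 0.0284), and one of FLRT3, a ligand of UNC5 receptors (0.72 ± 0.21 SE, adjusted p-value 0.0493) per the authors' deposited table. Of 54 cytoplasmic transducers, 52 had regions, and 2 of their 219 tested regions were past it, again both positive per the authors' deposited table. One covered the start of SRGAP1, a GTPase-activating protein that acts below Robo (0.83 ± 0.23 SE, adjusted p-value 0.0298), and the other lay at DPYSL2, which carries semaphorin signals to microtubules (1.16 ± 0.32 SE, adjusted p-value 0.0289) per the authors' deposited table. Together the lists had 4 of 308 tested regions past the threshold, or 1.30%, against the background of 1.67%, and 0 regions negative at an unadjusted p-value under 0.05 per the authors' deposited table.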

How the data were processed

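H3K27ac ChIP-seq was made in A375 cells, 2 vehicle and 2 octanoate libraries, grouped by the treatment in the labels. Per the submitters' processing notes, which give no role or order, Trim Galore, cutadapt, FastQC, Bowtie2, Picard, MACS2, featureCounts, DESeq2 and bedtools 2.29.1 were used with build hg38. The authors deposited 1 table, described here with Python 3.11.15 and pandas 2.3.3. Its mean level is a signal normalized by the authors, and its log2 fold change and standard error are the authors' values on the log2 scale. The statistic is a score that equals their ratio, per the file headers and a check. The deposited p-value is two-sided, and the deposited adjusted p-value is 1 for every region under a mean level of 18.44, read as not computed.

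Lines repeating a region were merged. Counts of regions past 0.05 and medians were set beside those of the whole table. Regions listed at distance 0 were taken to cover the start of their gene: distances pointed to 1 start per gene, within 1 base, for all 57 genes with a region away from it, and all 39 regions at distance 0 of those genes spanned that start. Gene spans, strands and promoter sequences came from RefSeq (GRCh38.p14), and exons were not analysed here.

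The design called for library-level tests if values per library were found. The table used here has 0 columns of such values, so no such test was run. Members and lists were chosen with earlier results of these data known. Named regions were those past the threshold, in each family the highest start region and the smallest p-value, the 3 most negative tested regions and the 3 widest. Others named were chosen after their values were seen. The code for adjustment and centring was checked on simulated data with large planted shifts. That check does not bear on the authors' SEs or on the single call after centring. Symbols meeting the rule but not described here are EFNA2, EPHA1, EPHA8, EPHA10 and the readthrough EFNA4-EFNA3.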

Additional observations from a re-analysis of the deposited data

How the results depend on the processing

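No paired analysis was possible because values per library are not in the 1 table used here, and for the same reason replicates were not left out in turn, and size factors and count filters were not varied. The 6 member regions past the threshold became 0 at an adjusted p-value under 0.01 (128 over the whole table), 2 (319) when changes under 1 in size (log2) were not counted, 1 (45) after centring, 1 (250) with adjustment over all distinct regions and 1 (224) with a single region per gene, that of highest level, against 6 (608) as reported. Counts were within 1.5 times in the other settings: 6 (631) over all lines, 6 without UNC5CL and 5 (467) within 100 kb of the start. Fewer calls under the stricter rules follow from their construction. The single call after centring was a UNC5C region that was no call as deposited.

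The median of 0.24, against 0.28 over the whole table, became 0.29 (0.32) among tested regions and 0.28 (0.32) where the mean level reached 10. The members lay above the whole table instead where the mean level reached 100, 0.37 (0.31), with a single region per gene, 0.40 (0.35), and within 100 kb, 0.31 (0.29). Leaving out each family in turn gave medians from 0.23 to 0.25. The share of positive regions, 69.9% against 73.7%, became 78.4% (84.1%) at a mean level of at least 10, 86.3% (95.3%) at one of at least 100 and 80.2% (87.3%) among tested regions, below the whole table in each. The cause was not tested. Of 27 named regions, centring reversed 2, EFNA1 at its start (-0.023) and the 11560-base SEMA3C region (-0.28), both far from the threshold. Added after seeing the data, the difference in medians between start and other regions was 0.25 among tested regions against 0.27. Negative UNC5C regions were 7 of 7 tested and 8 of 8 at a mean level of at least 10. As all 17 were negative, these counts could not differ and are no check.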
